A study of Mus musculus with 6 samples.

Results

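The enzymes that turn farnesyl pyrophosphate into squalene and then squalene into cholesterol were followed in TM4 cells, a mouse testis line that serves as a Sertoli cell model. The 9 genes were taken by symbol from the deposited table and are given in pathway order: Fdft1, Sqle, Lss, Cyp51, Msmo1, Nsdhl, Hsd17b7, Sc5d and Dhcr7. All 9 were found, each as 1 row among 55414 Ensembl gene identifiers, and all 9 passed the filter on low values, which asked for a deposited value of at least 1 in 3 libraries or more; 13972 genes passed it in all. RNA sequencing compared 3 control libraries with 3 libraries of a treated group labelled VC, all from the same male mouse line. The labels disagree on what VC received: the series title speaks of vitamin C, the agent field and the design text of valine, so the group is called VC here. Neither dose nor exposure time is given, and nothing says that the replicates were separate cultures, so each p-value reflects only how far these 6 samples spread, and that spread may be technical.

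The library totals recovered from the values ran from 20408425 to 22316857 reads. Reads of control replicate 3 differed most from the others, with a chi-square per degree of freedom of 9.57 to 17.2 against 2.78 to 7.28 for pairs without it. Of 13 Sertoli cell markers 5 passed the filter, among them Gata4 and Sox9, while Wt1, Fshr, Dmrt1 and Shbg were listed at 0 in every library. Of 8 Leydig cell markers 1 passed, and of 10 germ cell markers 2 passed. The summed level of 7 smooth muscle markers was 1030 to 1129 in control and 664.8 to 681.2 in VC, with Myh11 and Des under 1 in every library. Of the 5 tested, 3 were called lower, as were 36 of all 13972 tested genes. Those 3, Acta2, Myl9 and Actg2, made up most of the sum, with control means of 612.9, 309.7 and 124.3. The summed Sertoli markers were at 43.6 to 46.7 in control and 48.7 to 49.96 in VC. The part of these shifts in the results was not tested. In bulk RNA, fewer cells of a type and less RNA per cell cannot be told apart.

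Cholesterol synthesis leaves the common isoprenoid route at squalene, which is made by joining farnesyl pyrophosphate units, oxidised, folded into the sterol ring system and then trimmed and reduced to cholesterol. The genes of the route share a feedback control: when sterols in the endoplasmic reticulum run low, SREBP2 is escorted to the Golgi, cleaved and sent to the nucleus, where it acts with NF-Y and Sp1 at their promoters. In the testis, cholesterol is the starting material of steroid hormones, and its sterol precursors include meiosis-activating sterols.

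Promoter sequence is shown first for the 3 genes whose rise passed the test, because genes of this route are known to share promoter elements. RefSeq windows on build GRCm38.p6, from 250 bases before to 50 bases after a start site, were at hand for 7 of the 9 genes, as 9 windows. The reads were aligned to another build, so these coordinates describe the windows only. Each sequence reads 5′ to 3′ on the gene's own strand, those of Lss and Cyp51 stop where annotated exons begin, and capitals mark a GC box (GGGCGG, the Sp1 element), a CCAAT box (CCAAT, the NF-Y element) or the wider sterol response element core (ATCACNNCA) on either strand. Lss lies on the plus strand and Cyp51 and Msmo1 on the minus strand, and for Msmo1 a 30-base site alone is shown, which lies wholly within an annotated exon of Msmo1 itself.
Lss, chr10:76531355-76531587: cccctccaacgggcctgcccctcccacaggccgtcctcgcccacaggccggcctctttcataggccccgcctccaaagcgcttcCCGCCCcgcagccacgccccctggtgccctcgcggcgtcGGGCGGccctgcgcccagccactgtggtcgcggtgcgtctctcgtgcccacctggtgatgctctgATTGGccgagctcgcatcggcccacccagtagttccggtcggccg
Cyp51, chr5:4104747-4104947: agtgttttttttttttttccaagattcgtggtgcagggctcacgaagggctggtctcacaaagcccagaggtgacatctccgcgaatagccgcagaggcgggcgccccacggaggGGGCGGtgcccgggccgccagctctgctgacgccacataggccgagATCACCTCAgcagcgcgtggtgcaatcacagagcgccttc
Msmo1, chr8:64733646-64733675: aCCAATCACTGCAcggcgaaggcaGGGCGG

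The classical sterol response element core, TCACNCCAC, was in 0 of the 9 windows, which cover 7 of the genes. It was in 1.24% of all 32851 windows and in 1.1% of windows of tested genes. A wider form, ATCACNNCA, was added after that search came back empty. That form was in 2 of the 9 windows, those of Cyp51 and Msmo1, against 2.77% of all windows and 1.89% of windows of tested genes. In Cyp51 the match was ATCACCTCA, 89 to 81 bases before the start site (first base at -89, last at -81). In Msmo1 the match ATCACTGCA began at -93 and shared 2 of its bases with a CCAAT box that began at -96. All 7 genes with a window had at least 1 CCAAT box and at least 1 GC box, in 7 and 8 of the 9 windows, while 37.4% and 35.7% of all windows held them. Among windows of tested genes the shares with a CCAAT box and a GC box were 38.7% and 63.2%. A match is a run of letters, and no binding was measured.

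All 9 enzymes had their 3 VC values above their 3 control values, and 3 of them, Lss, Cyp51 and Msmo1, rose in VC by limma with Benjamini-Hochberg adjustment over all tested genes. Among all tested genes 13.9% had all VC values above all control values, 11.6% had all below, and 0.429% were called higher at an adjusted p under 0.05, the threshold used throughout. The median log2 fold change of the 9 genes was 0.31, from 0.14 for Dhcr7 to 0.49 for Lss, where the median of all tested genes was 0.01. All 9 also had an unadjusted p under 0.05, as did 9.05% of all tested genes in the same direction. Fold changes are differences of mean log2(value + 1), VC less control, and values are the deposited ones, which are scaled for gene length and depth like TPM.

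Gene length and genes that can track RNA quality moved with the group as well. Of the 9 enzymes 8 had an exon length in the upper part of tested genes cut into 4 groups of like size, 6 in the third group, where the median log2 fold change of all genes was 0.015, and 2 in the longest, where it was 0.054. Over 85 tested genes of cytosolic ribosomal proteins the median was -0.11, and over 13 protein genes of the mitochondrial genome -0.12, with 0 called by limma in either set. At an unadjusted p under 0.05, in either direction, there were 25 and 5, and limma-voom on recovered reads called 0 and 4. Of all genes, 2410 of 13972 had such an unadjusted p, and limma-voom called 604 of 13772. After quantile normalization these medians were -0.02 and 0.00. The part of length and RNA quality in the values of the enzymes was not tested.

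**Figure D1:**
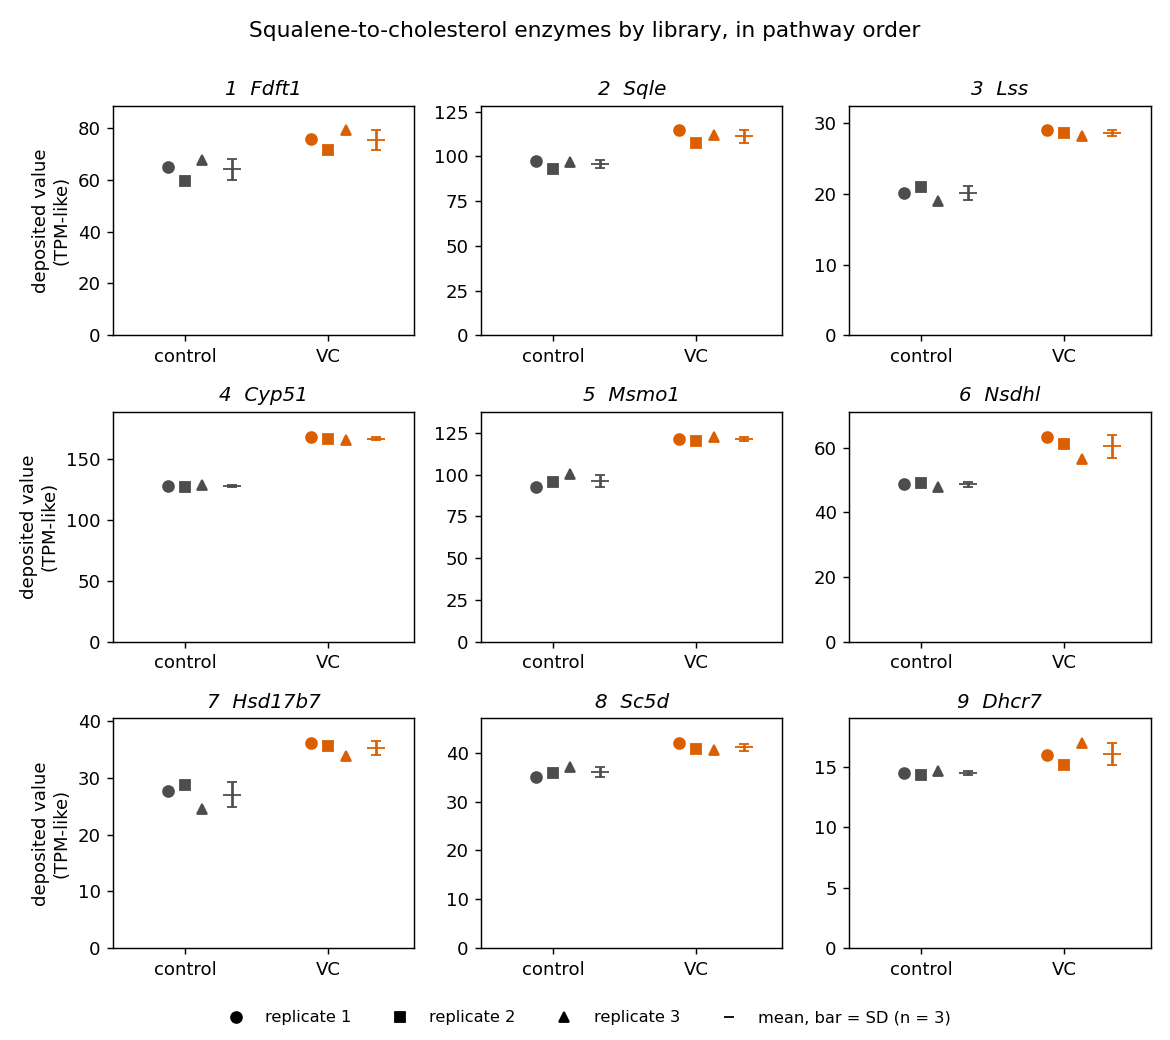
Deposited values (vertical axis, TPM-like, from 0) of the 9 enzymes in the 3 control and 3 VC libraries, with symbols for replicates and mean with SD beside them (n = 3). In each panel the 3 VC points lie above the 3 control points, with the widest gap in Cyp51 and the narrowest in Dhcr7.

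Fdft1 encodes squalene synthase, which joins farnesyl pyrophosphate units head to head and commits them to sterols. Its control values were 64.8, 59.5 and 67.7 and its VC values 75.6, 71.5 and 79.1. The groups did not overlap, but replicate 2 was the lowest of its group in both and the gap between groups was only 3.84, less than the SD of the controls (4.13). The log2 fold change was 0.23 (95% interval 0.093 to 0.376) and did not pass (limma adjusted p = 0.128). In the annotation 774 bases, 18.3% of the exon length of Fdft1, are shared with exons of Ctsb on the opposite strand. Ctsb, which encodes the lysosomal protease cathepsin B, was at 276.4 to 290.8 in control and 310.0 to 314.4 in VC. Neither the use of strand nor the handling of shared exons in the counting is given in the sources used here, so the value of Fdft1 is uncertain, and the part of Ctsb in it was not tested.

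Sqle encodes squalene monooxygenase, which adds oxygen to squalene and is known as a rate-limiting enzyme of the sterol branch. It was at 97.5, 92.9 and 97.0 in control and at 114.6, 107.6 and 111.9 in VC, about 1.16-fold higher on the means. The lowest VC value stood 10.1 above the highest control, more than the SD within either group (2.51 and 3.55). Its log2 fold change of 0.21 (95% interval 0.123 to 0.307) missed the threshold (limma adjusted p = 0.0681).

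Lss, lanosterol synthase, folds oxidosqualene into the first sterol. Its values were 20.1, 21.0 and 19.0 in control and 29.0, 28.6 and 28.2 in VC. The VC libraries were tightly grouped and 7.13 or more above every control. Of the 9 enzymes it had the largest change, 1.42-fold on the means and 0.49 log2 units (SE 0.049, 95% interval 0.373 to 0.607, limma adjusted p = 0.0189). That placed it 314th from the highest among the 13972 tested genes. Its interval lay wholly above those of Sqle, Sc5d and Dhcr7 and overlapped those of the other 5. Exons of the predicted gene 4930483K19Rik on the opposite strand share 3.53% of the Lss exon length, at values of 0.201 to 0.915.

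Cyp51 encodes the cytochrome P450 that strips a methyl group from lanosterol, whose fungal counterpart is the target of azole drugs. It was at 128.1, 127.4 and 128.9 in control and at 168.4, 166.2 and 166.0 in VC. No other enzyme of the 9 was so even within groups: the SDs of 0.762 and 1.31 were 0.595% and 0.787% of the means, and the gap between groups was 37.1. The rise from a mean of 128.2 to 166.9 was 0.38 log2 units (SE 0.028), with the smallest limma adjusted p of the 9, 0.0111. Opposite-strand exons of Akap9, at 5.74 to 9.23, share 3.76% of its exon length.

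Msmo1, Nsdhl and Hsd17b7 work in turn to remove a further pair of methyl groups. Msmo1, the methyl sterol oxidase, was at 92.8, 95.7 and 100.1 in control and 121.5, 120.0 and 122.7 in VC. The controls were more spread (SD 3.68) than the VC libraries (SD 1.36), and the gap between the groups was 19.9. The rise was 0.33 log2 units, with an SE of 0.038 and a limma adjusted p of 0.0257.

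Nsdhl, the decarboxylating sterol dehydrogenase on the X chromosome, showed the reverse spread. Its controls were at 48.7, 49.2 and 47.8, while the VC libraries were at 63.3, 61.2 and 56.5, so the third VC replicate was nearest to the controls. The SD was 0.678 in control and 3.52 in VC. The log2 fold change of 0.31 (95% interval 0.189 to 0.422) fell just short of the threshold (limma adjusted p = 0.0538).

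Hsd17b7, the keto-sterol reductase that completes this cycle and is also able to reduce estrone, was at 27.8, 28.8 and 24.5 in control and 36.1, 35.7 and 33.9 in VC. The third replicate was the lowest of both groups. Its mean went from 27.0 to 35.2, but the SD of 2.23 in control was 8.24% of the mean, the largest such share of the 9 in either group. The log2 fold change was 0.37 (95% interval 0.218 to 0.529, limma adjusted p = 0.0633).

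Sc5d and Dhcr7 act last: Sc5d introduces a double bond into the ring system, and Dhcr7 reduces the product to cholesterol. That product is also the precursor of vitamin D. Sc5d, the lathosterol desaturase, was at 35.1, 35.8 and 37.1 in control and 42.0, 40.8 and 40.6 in VC. The groups were 3.58 apart, more than the SD of either (0.984 and 0.730). Its log2 fold change was 0.19 (95% interval 0.095 to 0.280, limma adjusted p = 0.0892).

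Dhcr7 was the lowest in level and in change. Control values of 14.5, 14.4 and 14.7 stood against VC values of 16.0, 15.2 and 17.0, and VC replicate 2 was only 0.553 above the highest control. The log2 fold change was 0.14 (95% interval 0.006 to 0.267, limma adjusted p = 0.271). It rested on 654 to 796 recovered reads per library, the fewest of the 9, against 4381 to 6100 for Cyp51.

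**Figure D2:**
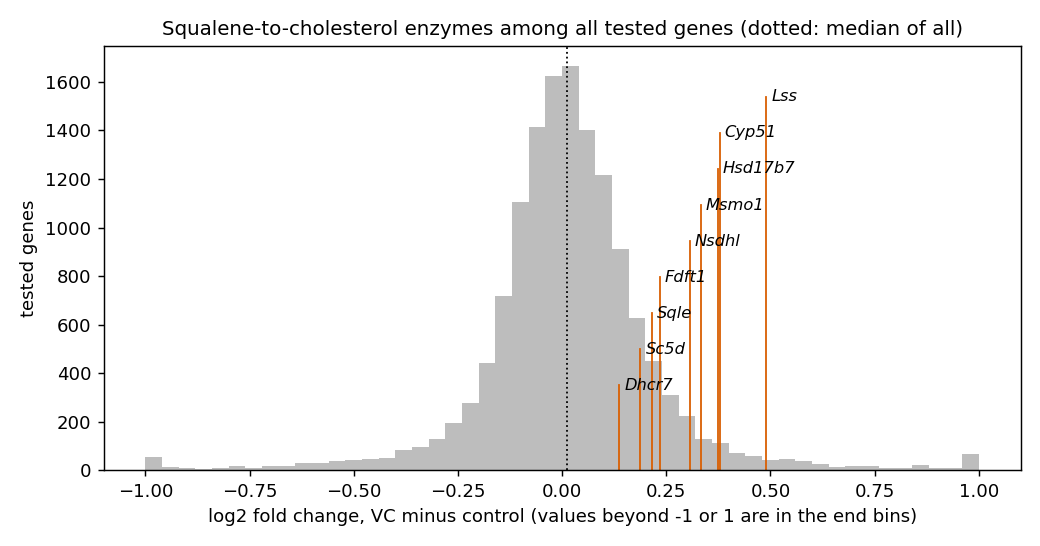
Histogram of log2 fold changes (VC minus control, horizontal axis) over the 13972 tested genes, with vertical lines at the 9 enzymes and a dotted line at the median of all genes. The enzymes lie from 0.14 (Dhcr7) to 0.49 (Lss), all to the right of the median of 0.01.

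Levels can be set side by side because the deposited values are per length. In control the order from the highest was Cyp51 (128.2 ± 0.762, mean ± SD, n = 3), Msmo1 (96.2 ± 3.68), Sqle (95.8 ± 2.51), Fdft1 (64.0 ± 4.13), Nsdhl (48.6 ± 0.678), Sc5d (36.0 ± 0.984), Hsd17b7 (27.0 ± 2.23), Lss (20.1 ± 1.01) and Dhcr7 (14.5 ± 0.151). Msmo1 and Sqle did not differ beyond their spread, and in every other pair of neighbours no library of the one overlapped those of the other. The same order held in VC, from 166.9 ± 1.31 for Cyp51 to 16.1 ± 0.893 for Dhcr7. The low place of Lss rests on the length it was divided by: the exons of all its annotated transcripts add up to 10787 bases, the longest of the 9, and its 1683 to 2564 reads per library were more than the 1039 to 1513 of Hsd17b7.

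**Figure D3:**
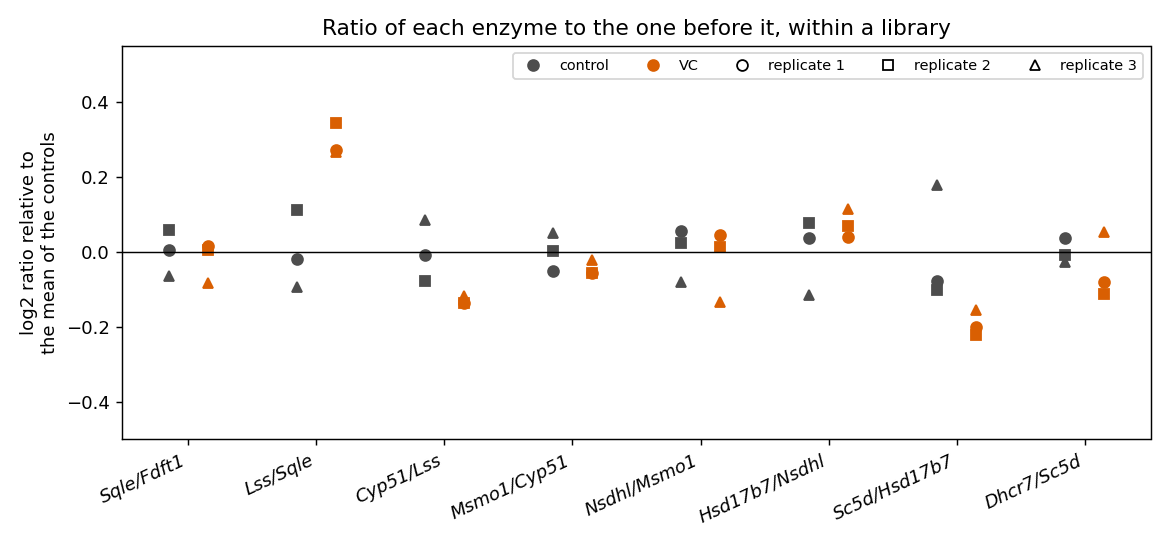
Log2 of the ratio of each enzyme to the enzyme before it in the pathway (vertical axis, relative to the mean of the controls) in each control and VC library, with symbols for replicates. Lss/Sqle is higher in all 3 VC libraries than in any control, Cyp51/Lss and Sc5d/Hsd17b7 are lower, and the other 5 ratios overlap.

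Whether the enzymes changed in proportion was asked within each library, as the ratio of each enzyme to the one before it. Lss over Sqle was 0.207, 0.226 and 0.196 in control and 0.253, 0.266 and 0.252 in VC. Cyp51 over Lss went the other way, from 6.36, 6.06 and 6.78 to 5.81, 5.82 and 5.90. Sc5d over Hsd17b7 was 1.26, 1.25 and 1.51 in control and 1.16, 1.14 and 1.20 in VC, with control replicate 3 far above the other controls. In these 3 of 8 ratios the groups did not overlap, and the log2 differences were 0.29, -0.13 and -0.19. Lss enters both Lss/Sqle and Cyp51/Lss, so these are not separate observations. For single genes, 13.9% of all tested lay wholly above control and 11.6% wholly below. Each of the 3 ratios had an exact two-sided permutation p of 0.1, the smallest that 3 against 3 allows, and 0.267 after Benjamini-Hochberg adjustment over the 8. The other 5 ratios had log2 differences from -0.05 to 0.07 and overlapping groups. With 3 libraries against 3 this permutation test could not pass whatever the values, so it does not show whether any step changed more than its neighbour.

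Other enzymes between lanosterol and cholesterol include Tm7sf2 and Lbr, which share a reductase step, and the isomerase Ebp. Ebp (log2 fold change 0.10, 95% interval -0.083 to 0.284) and Lbr (0.03, 95% interval -0.094 to 0.158) had overlapping groups, and the sign of Lbr turned without control replicate 3, at -0.01. Tm7sf2 was low, at 1.57 ± 0.307 in control and 1.77 ± 0.358 in VC, with a wide interval of -0.297 to 0.507.

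Cytochrome P450 reductase and the cytochrome b5 system supply electrons to Sqle, Cyp51, Msmo1 and Sc5d. None of 6 such partners and scaffolds was called by limma (3 at an unadjusted p under 0.05, 1 called by limma-voom), and their median was 0.03. Of all genes, 2410 of 13972 had such an unadjusted p, and limma-voom called 604 of 13772. Por, the P450 reductase, was at 103.5 to 109.5 in control and at 115.5 to 123.3 in VC (log2 fold change 0.16, chosen after its values were seen).

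Upstream, all 8 mevalonate enzymes had VC values wholly above control and 3 rose: Acat2, the thiolase at the entry (0.38, limma adjusted p = 0.0189), the decarboxylase Mvd (0.40, adjusted p = 0.0167) and the isomerase Idi1 (0.34, adjusted p = 0.0167). Among all tested genes 13.9% lay wholly above control and 0.429% were called higher. Without control replicate 3 the count called was 5, in a fit that called 52 of 13784 tested genes higher. With any other library left out the count was 0, in fits that called at most 1 gene of all tested. The median of the 8 was 0.35, beside 0.31 for the 9 enzymes after farnesyl pyrophosphate and 0.01 for all tested genes. Fdps, which makes farnesyl pyrophosphate, was listed at only 4.41 to 7.18 (log2 fold change 0.37, limma adjusted p = 0.130). It has near-identical processed pseudogenes, so its level is uncertain, and their part in its values was not tested. Fdps was picked for mention after its values were seen.

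**Figure D4:**
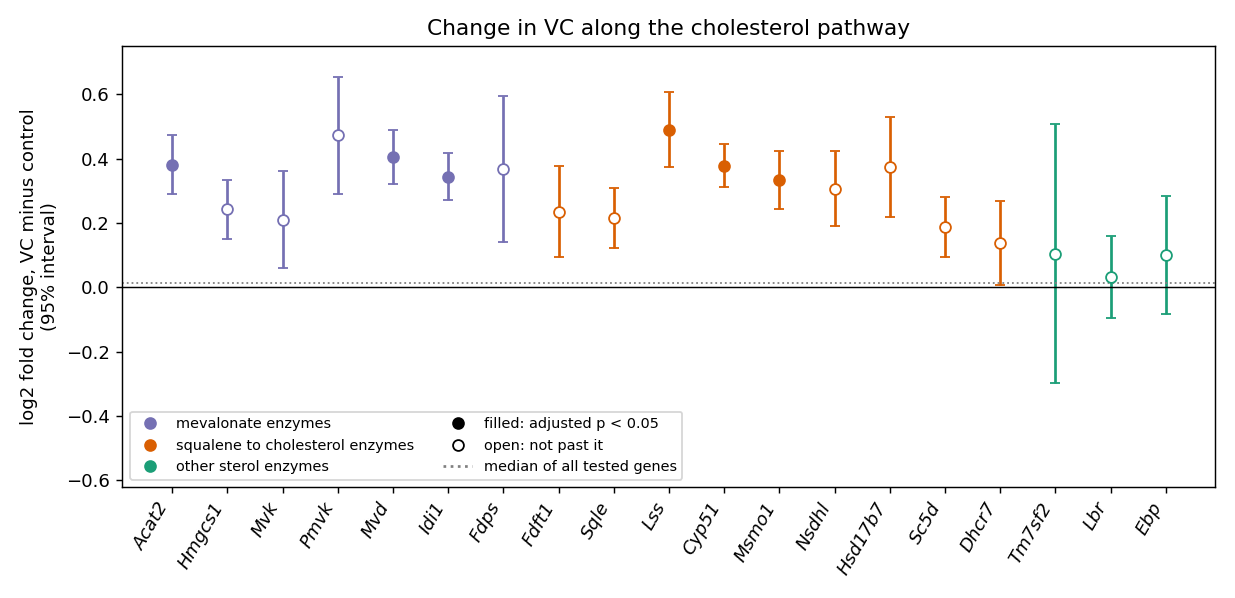
Log2 fold changes (VC minus control, vertical axis) with 95% intervals from limma for 7 of the 8 mevalonate enzymes, the 9 squalene-to-cholesterol enzymes and 3 other sterol enzymes; filled points have an adjusted p under 0.05. The 6 filled points are Acat2, Mvd, Idi1, Lss, Cyp51 and Msmo1, and the intervals of Tm7sf2, Lbr and Ebp cross 0.

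Of 7 genes of sterol sensing, 1 rose: Insig1, which holds the SREBP escort in the endoplasmic reticulum and is itself an SREBP target, was at 80.5 to 82.2 in control and 98.0 to 101.5 in VC (0.29, limma adjusted p = 0.0257). Among all tested genes 0.429% were called higher. The call of Insig1 held without control replicate 3 and was lost without any other library (limma adjusted p = 0.0848 to 0.140). Srebf2, the gene of SREBP2, was at 138.5 to 145.5 and 155.7 to 158.1 without passing (0.15, limma adjusted p = 0.0982). By limma-voom 2 of the 7 sensing genes were called, Srebf2 among them (limma-voom adjusted p = 0.0228). None of 7 tested genes of cholesterol uptake and esterification was called by limma, with 4 at an unadjusted p under 0.05 and 4 called by limma-voom. Over all genes these counts were 2410 of 13972 and 604 of 13772. The log2 fold change was above 0 in all 7, from 0.003 to 0.23 (median 0.18), and in 7505 of the 13972 tested genes. The limma intervals of Lipa, Scarb1 and Soat1 crossed 0 (-0.128 to 0.133, -0.043 to 0.222 and -0.028 to 0.148). In 5 of these 7 every VC library exceeded every control, which held for 13.9% of all tested genes. Soat1, which esterifies cholesterol, had a log2 fold change of 0.06 (adjusted p = 0.453).

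The genes whose pattern over the 6 libraries was most like the mean of the 9 standardised enzymes were Usp18, which removes the interferon-induced modifier Isg15 from proteins (Pearson's r 0.99996), Idi1 (0.998), Galc, the lysosomal galactosylceramidase (0.997), the peptidase Nln (0.995) and the nuclear receptor Ppard (0.994). The 9 enzymes themselves had r from 0.878 (Dhcr7) to 0.995 (Cyp51) with that mean, which includes them. With 6 libraries in 2 groups among 13972 genes, these are descriptions and carry no test. Usp18 was low, at 1.80 to 1.90 in control and 3.44 to 3.93 in VC, and was called higher (log2 fold change 0.725, limma adjusted p = 0.0411). Galc and Nln had log2 fold changes of only 0.18 and 0.07, and neither passed, nor did Ppard.

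The calls of Lss, Cyp51 and Msmo1 held without control replicate 3, the library that stood apart, with limma adjusted p of 0.0311, 0.0263 and 0.0290. They were lost when control replicate 1, control replicate 2 or any VC replicate was left out, with limma adjusted p from 0.0538 to 0.140, in fits that called at most 1 gene of all tested. Scaling to equal totals called 7 of the 9, where 1.3% of tested genes were called higher, and limma-voom on the recovered reads called 8 of the 9, where 3.33% were.

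**Figure D5:**
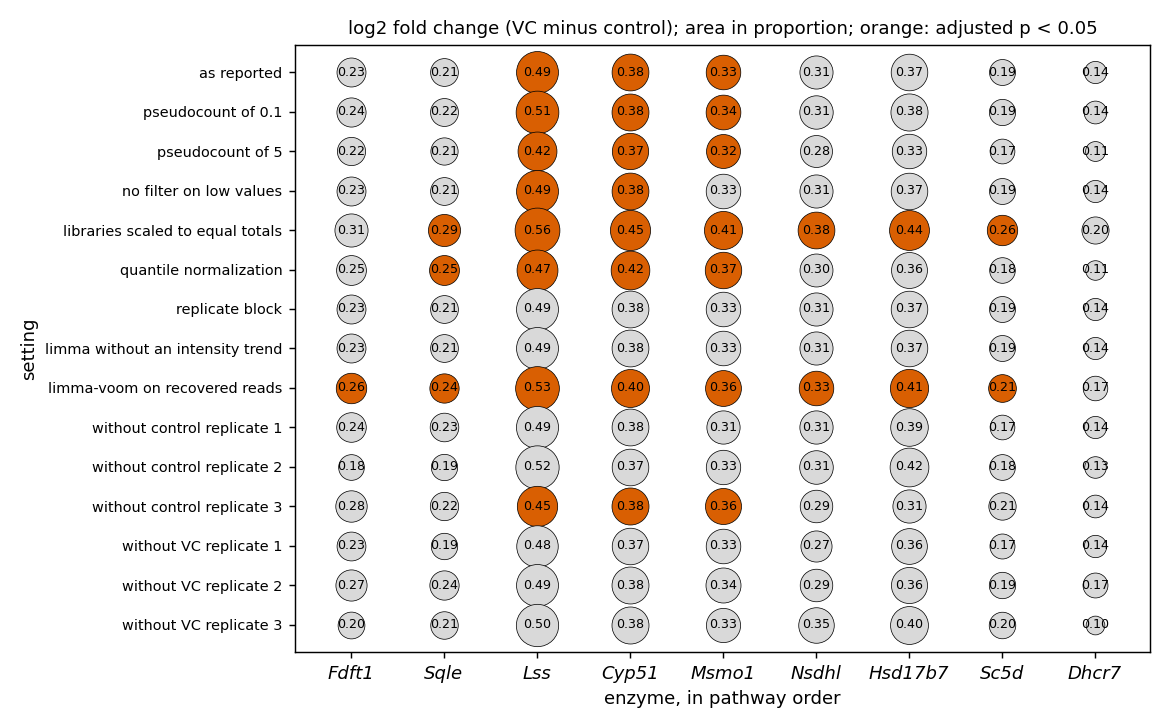
Log2 fold change (VC minus control) of each enzyme (horizontal axis) as reported and under 14 alternatives (vertical axis), printed in circles of proportional area; orange marks an adjusted p under 0.05. Every circle is above 0, which most settings could not change because every VC value lay above every control. Lss is the largest in every setting, and the number of orange circles goes from 0 to 8.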

How the data were processed

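Total RNA of TM4 cells was extracted with Trizol and made into TruSeq libraries, per the labels' protocols, and aligned with HISAT2 to GRCm39, per the submitters' processing notes; the counting tool and gene models were not given in the sources used here. Per gene, the deposited table holds a non-negative signal that behaves as TPM times 1 factor per library (column totals 966031 to 1058206), and its name points to TMM scaling by the authors. Columns were matched to samples by group letter and replicate number. Gene symbols, found for 52081 of 55414 identifiers, and exon lengths came from GENCODE M21 (GRCm38). Value times exon length gave whole reads (within 0.1) for 98.74% to 98.89% of values tested (up to 1000 reads, rounding error under 0.05). Every pair of libraries differed by more than sampling noise.

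Genes reaching a value of 1 in 3 or more libraries were kept, and VC was compared with control on log2(value + 1) in limma 3.58.1 (R 4.3.3; intensity trend, no covariate, two-sided, Benjamini-Hochberg over 13972 genes, threshold 0.05). limma called 60 genes higher and 36 lower. Libraries scaled to equal totals gave 182 higher and 35 lower, so that higher calls went from 62.5% to 83.9% of all calls and the median of all genes from 0.01 to 0.08. The procedure was run on simulated data whose smallest rise was larger than that of every enzyme but Lss. That check does not cover changes of the size seen in the other enzymes. No replicate block was used, because the replicate numbers are not stated to mark a shared batch. Over all tested genes, same-numbered samples did not deviate together (correlations -0.019, -0.011 and 0.005). Python 3.11.15 (pandas 2.3.3, numpy 2.4.6) made the tables and matplotlib 3.10.9 the figures.

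The 9 genes and the pathway lists were chosen with earlier results of these data known. Named are all 9, every list gene past the threshold and 7 genes whatever their test (Ebp, Lbr, Tm7sf2, Srebf2, Insig1, Soat1, Abca1; others of that rule are not reported here), plus the 5 genes of most similar pattern, leaving out predicted and clone names. Cell type markers and genes that share exons with an enzyme are named beside the values they bear on; every other name was picked after its values were seen. Alternatives changed the pseudocount, filter, scaling, trend, block, the libraries included and the test (limma-voom on the recovered reads).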

Additional observations from a re-analysis of the deposited data

How the results depend on the processing

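The log2 fold changes of the 9 enzymes were above 0 under all 14 alternatives, from 0.098 (Dhcr7) to 0.56 (Lss). Most of these could not have turned the sign, because every VC value of the 9 lay above every control. Only a change of scaling or the test on recovered reads could have done so. The number of the 9 called (3 as reported, of 96 genes in all and 4 other pathway genes) was 7, of 217 in all and 8 others, with equal totals, where 1.3% of tested genes were called higher. It was 8, of 604 in all and 16 others, by limma-voom on the recovered reads, where 3.33% were called higher and the higher calls were 75.8% of all calls. With a replicate block these counts were 0, 0 and 0 (2039 genes at an unadjusted p under 0.05), and every call of a named gene was lost; the numbers are not known to pair the samples. Without an intensity trend they were 0, 6 in all and 0, and without a filter 30 genes were called in all, among them Lss and Cyp51 but not Msmo1 (limma adjusted p = 0.0505). Leaving out 1 library gave 0 to 3 of the 9, 0 to 83 in all and 0 to 6 others. The upper ends came without control replicate 3, where 60 of the 83 were among the 96 (2478 genes at an unadjusted p under 0.05). The count was 0 without control replicate 2, VC replicate 1 or VC replicate 2 and 1 without control replicate 1 or VC replicate 3, with 1607 to 2271 at an unadjusted p under 0.05; fewer libraries also give less power. The median of the 9 was 0.285 with a pseudocount of 5, 0.377 with equal totals (all genes 0.078), 0.333 by limma-voom (all genes 0.035) and 0.27 to 0.326 with 1 library left out. Lbr, 0.032 as reported, ran from -0.012 (without control replicate 3) to 0.063 with 1 library left out. The cause of these shifts was not tested.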

Other observations

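Enzymes that draw on farnesyl pyrophosphate for other products did not move one way. None of 9 was called by limma (0 higher and 0 lower), 5 had an unadjusted p under 0.05 and limma-voom on recovered reads called 0. Of all genes, 2410 of 13972 had such an unadjusted p, and limma-voom called 604 of 13772. The median log2 fold change of the 9 was 0.00, with 3 genes wholly above and 4 wholly below the controls in VC. Across all tested genes 13.9% were wholly above and 11.6% wholly below. Dhdds and Nus1 form the enzyme of dolichol synthesis together. Dhdds was at 20.6 to 21.6 in control and 22.8 to 24.5 in VC, while Nus1 was at 79.0 to 80.2 and 68.8 to 73.1. Neither passed (log2 fold changes 0.16 and -0.16, limma adjusted p = 0.167 and 0.105). Coq2, of ubiquinone synthesis, was at 13.1 to 13.9 in control and 10.7 to 11.7 in VC (log2 fold change -0.22, limma adjusted p = 0.140). These genes, and Marchf6, Nr1h2, Abca5, Ch25h, Cyp7b1 and Mylip in what follows, were picked after their values were seen.

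Of 8 genes of the ubiquitin machinery that degrades sterol enzymes none was called by limma, with a median of -0.04. At an unadjusted p under 0.05 there was 1 (2410 of 13972 over all genes), and limma-voom called 0 (604 of 13772 over all genes). Marchf6, the ligase known to degrade squalene monooxygenase, had a log2 fold change of 0.07 (95% interval -0.052 to 0.199). Of 10 genes of oxysterol production and the LXR response only Nr1h2 and Abca5 passed the filter on low values. Both had VC values wholly above control, with log2 fold changes of 0.11 and 0.24. Neither was called by limma (adjusted p = 0.243 and 0.192), and limma-voom called 1 of them. Abca1, the cholesterol exporter and LXR target, was at 0.012 to 0.075, on 1 to 6 recovered reads per library, and Ch25h, Cyp7b1 and Mylip were listed at 0 in every library.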
